A study of Homo sapiens with 12 samples.

Results

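A set of 10 genes that encode enzymes of collagen crosslinking and hydroxylation were examined in RNA-seq data from Ewing sarcoma cells with and without induced c-Jun and c-Fos. The 10 genes were LOX, LOXL1, LOXL2, LOXL3, LOXL4, PLOD1, PLOD2, PLOD3, P4HA2 and P4HA3, taken by symbol from the 58721 genes of the count table, and all 10 were among the 21013 genes that passed a filter on low counts. EW8 and TC71 are established Ewing sarcoma cell lines, both labelled WT. Each line carried a lentiviral cassette in which the TRE3G promoter drives c-Jun and c-Fos coding sequences linked by a 2A peptide, and the Tet-On 3G transactivator under the EF1 alpha promoter. The vehicle groups carried the same cassettes as the doxycycline groups. EW8 and TC71 cells received DMSO vehicle or doxycycline at 2000 ng/mL for 72 h, with 3 libraries in each of the 4 groups. A line without the transgenes that received doxycycline was not analysed here, so an effect of doxycycline itself and one of c-Jun and c-Fos cannot be told apart. No source stated that the libraries of a group came from separate cultures, so that p-values measure only the spread between these libraries, which may be technical.

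Collagen chains are modified in the endoplasmic reticulum before they are secreted. Prolyl 4-hydroxylases, tetramers of alpha subunits (P4HA1, P4HA2 or P4HA3) and the beta subunit P4HB, hydroxylate proline residues and thereby stabilize the triple helix. Lysyl hydroxylases (PLOD1, PLOD2 and PLOD3) hydroxylate lysine residues of the helix and of the telopeptides, and both enzyme classes need iron, oxygen, 2-oxoglutarate and ascorbate. Outside the cell, lysyl oxidases (LOX and LOXL1 to LOXL4) are copper-dependent amine oxidases that convert lysine and hydroxylysine side chains into reactive aldehydes, which then form the covalent crosslinks of collagen and elastin fibers. Several of these genes are known targets of hypoxia-inducible factors, and AP-1, the dimer of Jun and Fos proteins, is a known regulator of matrix genes in fibroblasts.

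Total counts ranged from 42860665 to 60853649 per library. Mitochondrial genes took 1.22% to 2.81% of the counts, with the highest share in TC71 vehicle replicate 1. Induction was checked first: JUN rose from a mean of 21.6 ± 2.61 to 474 ± 44.8 CPM (counts relative to the TMM-scaled library size) in EW8 and from 20.7 ± 4.01 to 756 ± 54.6 CPM in TC71, and FOS rose from 36.8 ± 0.814 to 1078 ± 72.0 CPM in EW8 and from 11.7 ± 0.426 to 1580 ± 120 CPM in TC71 (mean ± SD, n = 3). These counts pool endogenous and transgene reads. All 10 genes of an Ewing sarcoma marker list were above 6 counts, the floor used here (3 read pairs), in every group, and their summed level was 3197 to 3270 CPM in EW8 vehicle, 3020 to 3106 CPM in EW8 doxycycline, 2919 to 3315 CPM in TC71 vehicle and 2733 to 2836 CPM in TC71 doxycycline libraries. LIPI fell in EW8 (log2 fold change −1.40 ± 0.11 SE), and no gene of that list was called in TC71. The median log2 fold change of the list was −0.47 in EW8 and −0.33 in TC71. Under the fold limit, BCL11B was lower (−0.83 ± 0.08 SE in EW8 and −0.93 ± 0.08 SE in TC71). CD99, a large part of the sum, was higher (0.62 ± 0.07 SE and 0.44 ± 0.07 SE), from 807 to 1243 CPM in EW8. Of 12 fibroblast markers, 2 rose and 2 fell in EW8 and 4 rose and 3 fell in TC71. Their summed level was 194 to 213 CPM and 204 to 220 CPM in EW8 vehicle and doxycycline, and 297 to 350 CPM and 479 to 490 CPM in TC71 vehicle and doxycycline. In TC71, mean S100A4 rose from 25.8 to 161 CPM and COL1A1 from 26.1 to 92.8 CPM, while PDGFRB fell from 59.7 to 22.3 CPM. The median log2 fold change of the list was 0.16 in EW8 and 0.16 in TC71. FAP, the fibroblast activation protein, rose in EW8 and in TC71 (3.19 ± 0.19 and 2.99 ± 0.18, log2 ± SE). LUM, the proteoglycan lumican, fell in both lines (−2.36 ± 0.65 in EW8 and −1.66 ± 0.46 in TC71), and COL1A2 was at the floor in TC71 vehicle. The part of these markers in the results below was not tested. In bulk libraries, fewer cells of a type and less RNA per cell cannot be told apart.

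The genes lie on separate loci of GRCh38, as listed in the count table. The lysyl oxidases were LOX (ENSG00000113083.13, chr5:122063195-122078360, minus strand), LOXL1 (ENSG00000129038.15, chr15:73925989-73952137, plus strand), LOXL2 (ENSG00000134013.15, chr8:23297189-23425328, minus strand), LOXL3 (ENSG00000115318.11, chr2:74532414-74555690, minus strand) and LOXL4 (ENSG00000138131.3, chr10:98247690-98268250, minus strand). The lysyl hydroxylases were PLOD1 (ENSG00000083444.16, chr1:11934205-11975538, plus strand), PLOD2 (ENSG00000152952.11, chr3:146069440-146163653, minus strand) and PLOD3 (ENSG00000106397.11, chr7:101205977-101218420, minus strand), and the prolyl 4-hydroxylase alpha subunits were P4HA2 (ENSG00000072682.18, chr5:132191838-132295315, minus strand) and P4HA3 (ENSG00000149380.11, chr11:74235801-74311657, minus strand). All 10 are annotated as protein-coding. The file header shows counting of exon reads without a strand setting and without the option that assigns a read to several genes, so that reads in exon bases shared by 2 genes were assigned to neither. Shared bases made up 19.28% of the exon length of LOXL3 (with HTRA2 and DOK1), 9.21% of LOXL1 (with LOXL1-AS1), 7.56% of PLOD3 (with ZNHIT1), 6.45% of P4HA2 (with P4HA2-AS1), 5.22% of LOXL2 (with LOXL2-AS1 and ENTPD4), 5.09% of P4HA3, 4.16% of LOXL4, 2.49% of LOX, and none of PLOD1 or PLOD2.

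To ask which of the enzymes responded to c-Jun and c-Fos, doxycycline was compared with vehicle in each line with edgeR's quasi-likelihood test, and a gene was called when its Benjamini-Hochberg adjusted p over all tested genes was under 0.05 and its absolute log2 fold change was over 1. In EW8, LOXL2, LOXL4, P4HA2 and P4HA3 rose, which was 4 of 10 members against 11.4% of all tested genes called higher, and 0 of 10 fell against 3.38% called lower. At an adjusted p under 0.05 alone, 6 members were higher and 0 lower, against 43.9% of all tested genes in either direction. In TC71, LOXL1, LOXL2, LOXL4, PLOD3, P4HA2 and P4HA3 rose, which was 6 of 10 against 12.3% called higher, and 0 of 10 fell against 3.67% called lower. LOXL4 is counted there on 2 to 19 counts, and in a fit of the TC71 libraries alone it did not pass the filter and 5 of the 9 tested members were called. At adjusted p alone, 8 were higher and 1 was lower, against 45.6% of all genes. The 4 members called in EW8 were also called in TC71, and LOX, LOXL3, PLOD1 and PLOD2 were called in neither line. The 3 doxycycline values and the 3 vehicle values did not overlap for 6 of 10 members in EW8 and 9 of 10 in TC71, against 56% and 50.7% of all tested genes. The median log2 fold change of the 10 members was 0.88 in EW8 and 1.74 in TC71, beside −0.03 and 0 over all tested genes.

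**Figure D1:**
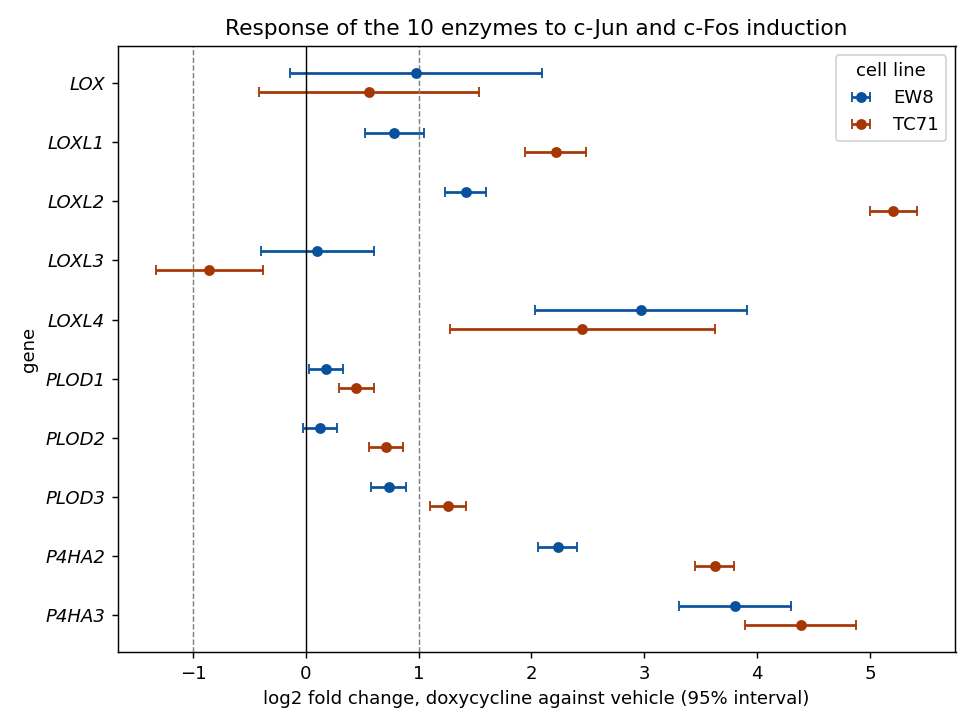
Log2 fold change of each of the 10 genes (y axis) with doxycycline against vehicle (x axis), with its 95% interval from the edgeR fit, in EW8 (blue) and TC71 (brown), 3 libraries a group; dashed lines mark the fold limit of 1 in either direction. The values run from 0.10 for LOXL3 to 3.80 for P4HA3 in EW8 and from −0.85 for LOXL3 to 5.21 for LOXL2 in TC71.

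LOXL2, a lysyl oxidase with scavenger receptor domains that acts on fibrillar and basement membrane collagen, had the largest response of the 10 genes in TC71. Its level was 22.2, 23.1 and 22 CPM in the EW8 vehicle libraries and 58.9, 61.9 and 59.1 CPM in the EW8 doxycycline libraries. In TC71 it was 5.73, 7.76 and 8.05 CPM with vehicle and 267, 280 and 251 CPM with doxycycline. TC71 thus had the lowest LOXL2 levels of the series before induction and the highest after it, and no 2 groups overlapped. The rise was 2.67-fold in EW8 (log2 1.42 ± 0.09 SE, adjusted p = 1.76e-10) and 37.0-fold in TC71 (log2 5.21 ± 0.10 SE, adjusted p = 1.29e-17). TC71 vehicle replicate 1, the library with the highest mitochondrial share, had the lowest LOXL2 value, and the log2 fold change in TC71 without it was 4.99. Of the neighbours that share LOXL2 exon bases, ENTPD4 had a log2 fold change of 0.33 in EW8 and 0.93 in TC71, and LOXL2-AS1 rose in EW8 (1.52) and had 0.18 in TC71.

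LOXL1, the lysyl oxidase known for elastin fiber assembly, was at 23.6, 28.9 and 27.4 CPM in EW8 vehicle and 47.0, 47.0 and 43.6 CPM in EW8 doxycycline libraries. The groups did not overlap, and the difference passed the adjusted p but stayed under the fold limit (log2 0.78 ± 0.12 SE, adjusted p = 4.23e-05). In TC71, LOXL1 was at 15.6, 23.7 and 23.8 CPM with vehicle and 94.0, 107 and 91.7 CPM with doxycycline. All 3 induced TC71 libraries exceeded every other library of the series, and the rise was 4.64-fold (log2 2.21 ± 0.13 SE, adjusted p = 5.87e-11), or 1.96 on the log2 scale without TC71 vehicle replicate 1.

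LOXL4, another member with scavenger receptor domains, was rare in all libraries. EW8 vehicle libraries held 8, 14 and 19 LOXL4 counts (0.180, 0.305 and 0.341 CPM), and EW8 doxycycline libraries held 118, 108 and 102 counts (2.11, 2.13 and 2.33 CPM), without overlap. The rise in EW8 was 7.83-fold (log2 2.97 ± 0.44 SE, adjusted p = 2.46e-05). In TC71 the counts were 2, 6 and 2 with vehicle, at the floor, and 8, 16 and 19 with doxycycline. Summed over libraries, these were 5 and 22 read pairs, a ratio of 5.75 per unit of depth (95% exact interval 2.12 to 19.4, counting error only). In the fit of all 4 groups, LOXL4 had an edgeR adjusted p of 0.00133 in TC71, where its fitted log2 fold change of 2.45 depends on the prior count. LOXL4 did not pass the filter on low counts when the TC71 libraries were taken alone, so this p rests on the filter and spread of the joint fit.

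LOX, the founding member of the family, and LOXL3 were not called in either line. LOX held 8 to 29 counts in EW8 vehicle and 14 to 65 in EW8 doxycycline libraries, which is 0.144 to 0.632 and 0.320 to 1.16 CPM, and the groups overlapped. Its log2 fold change in EW8 was 0.98 ± 0.53 SE (95% interval −0.14 to 2.09, adjusted p = 0.152), and without EW8 vehicle replicate 2 it was 1.73 with an adjusted p of 0.026. In TC71, LOX ran from 0.993 to 1.63 CPM with vehicle and from 1.41 to 2.44 CPM with doxycycline, again with overlap (log2 0.56 ± 0.46 SE, 95% interval −0.42 to 1.54, adjusted p = 0.357). At these counts the intervals include both no change and a change past the fold limit in each line.

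LOXL3 was the single member that was lower after induction at an adjusted p under 0.05, in TC71. Its level there was 12.3, 9.53 and 10.4 CPM with vehicle and 6.57, 5.47 and 5.73 CPM with doxycycline. Every induced library was below every vehicle library, and the difference stayed under the fold limit (log2 −0.85 ± 0.23 SE, adjusted p = 0.00434). In EW8, LOXL3 was at 1.83, 3.20 and 4.44 CPM with vehicle and 2.86, 3.89 and 3.49 CPM with doxycycline, which overlapped (log2 0.10 ± 0.24 SE, 95% interval −0.40 to 0.61, adjusted p = 0.772). HTRA2 and DOK1, which share exon bases with LOXL3, had log2 fold changes of 0.06 and −0.01 in TC71.

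**Figure D2:**
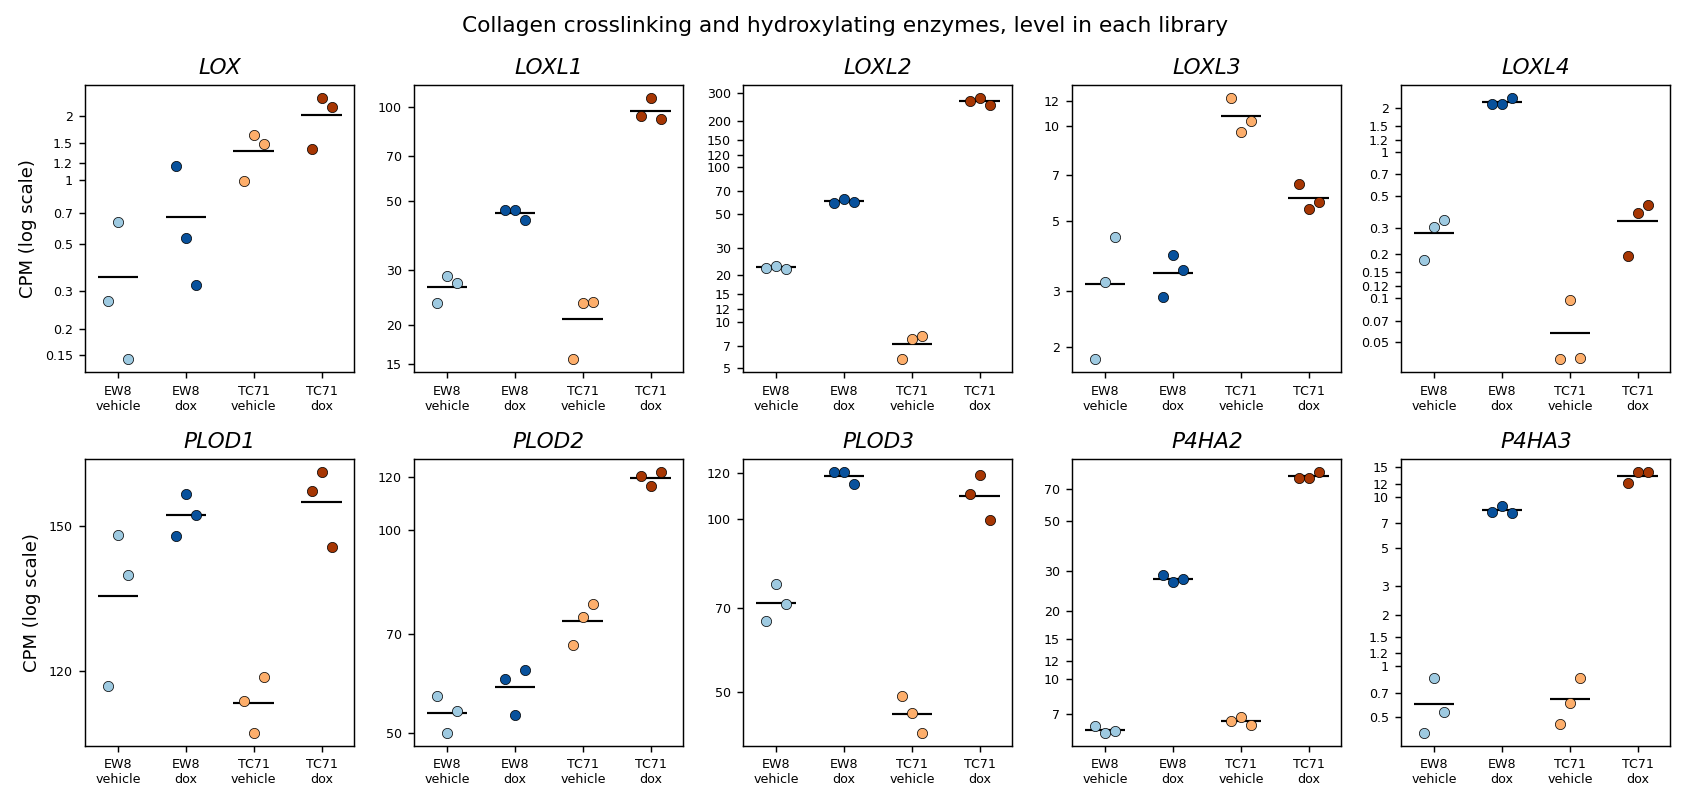
CPM on a log scale (y axis, its range set for each gene) in each of the 12 libraries for the 10 genes, with groups on the x axis, 1 point per library and a line at the group mean. LOXL1, LOXL2, LOXL4, PLOD3, P4HA2 and P4HA3 separate completely by treatment within both lines, and the LOX groups overlap within each line.

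Of the lysyl hydroxylases, PLOD3, which also has collagen glucosyltransferase and galactosyltransferase activity, responded most. PLOD3 was at 66.3, 77.0 and 71.0 CPM in EW8 vehicle and 121, 121 and 115 CPM in EW8 doxycycline libraries, without overlap (log2 0.73 ± 0.08 SE, adjusted p = 2.5e-07, under the fold limit). In TC71 it rose 2.39-fold, from 49.1, 45.9 and 42.5 CPM to 111, 119 and 99.6 CPM (log2 1.26 ± 0.08 SE, adjusted p = 1.4e-10). The induced levels of the lines overlapped, while the vehicle levels did not. PLOD2, the telopeptide lysyl hydroxylase, was at 50.0 to 56.7 CPM and 53.1 to 61.9 CPM in EW8 vehicle and doxycycline (log2 0.13 ± 0.07 SE, adjusted p = 0.184), and at 67.6 to 77.6 CPM and 116 to 122 CPM in TC71 (log2 0.71 ± 0.07 SE, adjusted p = 1.83e-07, under the fold limit). PLOD1, which hydroxylates lysine residues of the triple helix, changed least of the family in TC71, with log2 fold changes of 0.18 ± 0.07 SE in EW8 (adjusted p = 0.0577) and 0.45 ± 0.07 SE in TC71 (adjusted p = 6.22e-05). In EW8 the adjusted p of PLOD1 was under 0.05 in 10 of 14 alternatives (0.00446 to 0.343), all under the fold limit, and that of PLOD2 in 3 of 14 (0.0378 to 0.491).

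Both prolyl 4-hydroxylase alpha subunits of the set rose in both lines. P4HA2 was at 6.18, 5.75 and 5.86 CPM in EW8 vehicle and 28.9, 26.9 and 27.8 CPM in EW8 doxycycline libraries, and at 6.47, 6.73 and 6.21 CPM in TC71 vehicle and 78.1, 78.2 and 83.1 CPM in TC71 doxycycline libraries. The vehicle levels of the lines lay close together, and the induced levels were apart from them and from each other. The rise was 4.70-fold in EW8 (log2 2.23 ± 0.08 SE, adjusted p = 1.19e-13) and 12.3-fold in TC71 (log2 3.62 ± 0.08 SE, adjusted p = 1.41e-16). P4HA3 had the largest response of the 10 genes in EW8. It was at 0.406, 0.850 and 0.539 CPM with vehicle and 8.20, 8.81 and 8.06 CPM with doxycycline in EW8, and at 0.458, 0.612 and 0.854 CPM and 12.1, 14.1 and 14 CPM in TC71. Vehicle libraries held 18 to 44 P4HA3 counts and doxycycline libraries 353 to 615, with no overlap in either line. The rise was 13.9-fold in EW8 (log2 3.80 ± 0.24 SE, adjusted p = 2.28e-10) and 20.9-fold in TC71 (log2 4.38 ± 0.23 SE, adjusted p = 1.93e-11).

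The remaining subunits of the enzyme moved little. P4HA1 had the highest level of the alpha subunits per kb of exon in each group. In CPM it was below P4HA2 in TC71 doxycycline libraries (43.7 ± 5.21 against 79.8 ± 2.87, mean ± SD, n = 3). Its log2 fold changes were −0.05 ± 0.11 SE in EW8 (95% interval −0.29 to 0.18, edgeR adjusted p = 0.738) and 0.02 ± 0.11 SE in TC71 (−0.21 to 0.25, adjusted p = 0.901). P4HB, the beta subunit that is also protein disulfide isomerase, had 0.29 ± 0.05 SE in EW8 (adjusted p = 3e-04) and 0.54 ± 0.05 SE in TC71 (adjusted p = 1.49e-07), both under the fold limit. PDLIM4, an adaptor with PDZ and LIM domains, and SLC22A4, a carrier of ergothioneine, overlap the annotated span of P4HA2 on the opposite strand and share no exon bases with it, and both rose. PDLIM4 had log2 fold changes of 2.08 ± 0.12 SE and 3.78 ± 0.13 SE in EW8 and TC71, and SLC22A4 had 3.04 ± 0.30 SE and 4.25 ± 0.33 SE (edgeR adjusted p from 3.96e-14 to 1.22e-07). These neighbours were chosen by position and described after their values were seen.

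Levels of different genes were compared per kb of exon, as CPM per kb. That length covers all annotated exons of a gene (8502 bases for P4HA2), and the length of the transcripts present was not measured. Orders and shares on this scale depend on it. In EW8 vehicle the order ran from PLOD1 (25.3 ± 2.96), PLOD3 (12.6 ± 0.946), LOXL1 (7.32 ± 0.741), PLOD2 (7 ± 0.440) and LOXL2 (3.93 ± 0.0969) down to LOXL3, P4HA2, P4HA3, LOXL4 and LOX, all under 1 (mean ± SD, n = 3). Of these neighbours, the ranges overlapped for LOXL1 with PLOD2, LOXL3 with P4HA2, and LOXL4 with LOX. In TC71 vehicle the order was PLOD1 (21.5 ± 0.915), PLOD2, PLOD3, LOXL1, LOXL3 (2.46 ± 0.320), LOXL2 (1.26 ± 0.222), P4HA2, LOX, P4HA3 and LOXL4 (0.0158 ± 0.00919), where only LOX and P4HA3 overlapped. In EW8 doxycycline LOXL2 (10.5 ± 0.286) stood above PLOD2 (7.64 ± 0.614), P4HA2 and P4HA3 stood above LOXL3, and no neighbours overlapped. In TC71 doxycycline LOXL2 (46.6 ± 2.57) was the highest of the 10, above PLOD1 (29.2 ± 1.73) and LOXL1 (26.8 ± 2.29), which overlapped each other, and all other neighbours were apart.

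The makeup of each family, as a share of its summed level in CPM per kb, changed with induction. The 5 lysyl oxidases summed to 12.1 ± 1.06 CPM per kb in EW8 vehicle, 24.6 ± 0.752 in EW8 doxycycline, 9.76 ± 1.27 in TC71 vehicle and 75.3 ± 4.73 in TC71 doxycycline libraries. LOXL2 made up 30.8% to 35.7% of that sum in EW8 vehicle and 41.9% to 43.5% in EW8 doxycycline, and 12.1% to 13.3% and 61.1% to 62.9% in TC71. LOXL1 went from 51.7% to 62.7% of the sum in TC71 vehicle to 34.7% to 36.7% in TC71 doxycycline libraries, although its own level was higher, and LOXL3 from 21.1% to 33.9% to between 1.56% and 2.02%. Among the 3 alpha subunits of prolyl 4-hydroxylase, P4HA1 held 91.7% to 93.4% of the sum in EW8 vehicle and 63.0% to 68.0% in EW8 doxycycline, and 93.0% to 94.4% and 50.5% to 54.8% in TC71. P4HA2 held 33.3% to 36.0% and P4HA3 11.9% to 13.7% in TC71 doxycycline, against at most 5.91% and 1.39% in TC71 vehicle. PLOD3 held 27.4% to 28.4% of the lysyl hydroxylase sum in EW8 vehicle and 35.5% to 37.4% in EW8 doxycycline, and 18.7% to 22.2% and 28.9% to 31.4% in TC71. None of these ranges overlapped between treatments. They were given no test, and with 3 against 3 libraries an exact two-sided permutation test cannot go below p = 0.1.

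**Figure D3:**
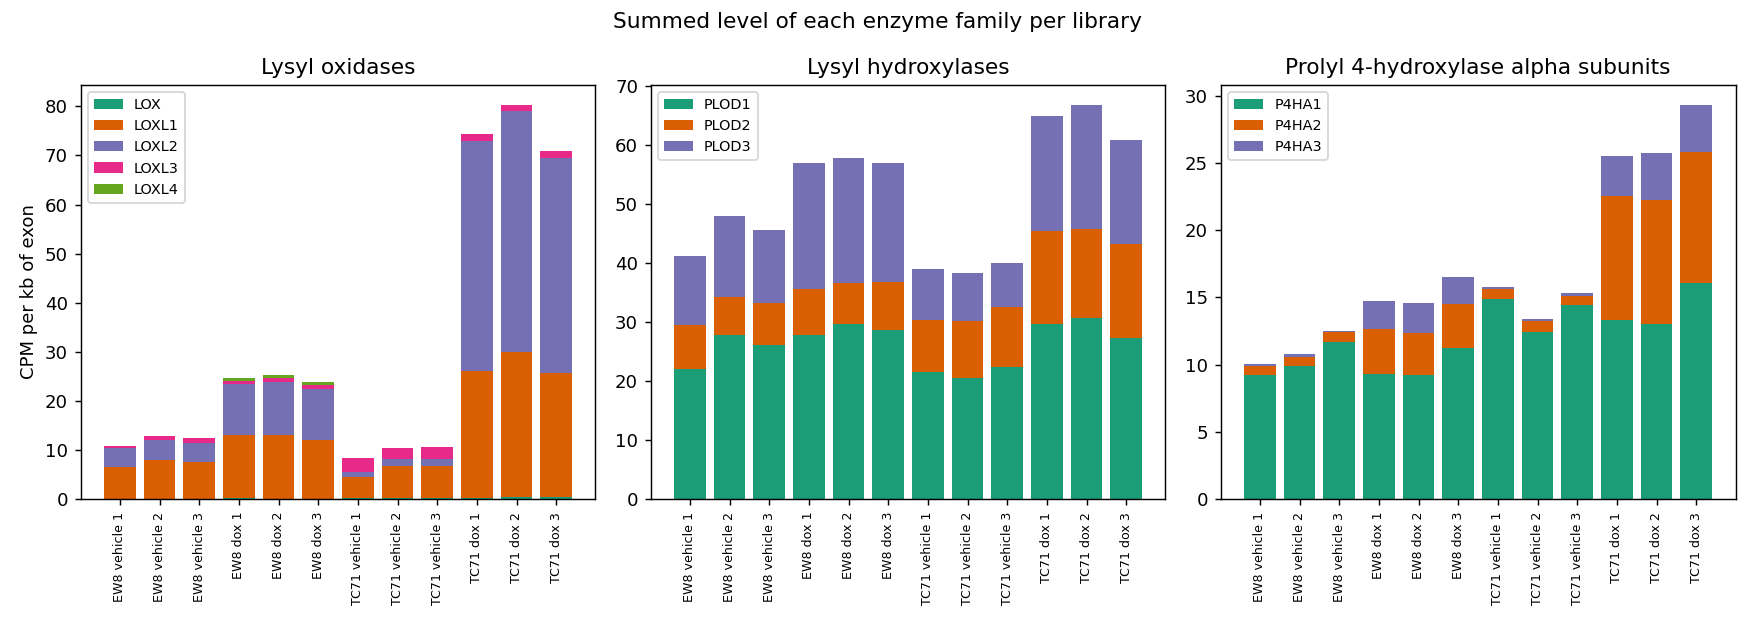
Summed level in CPM per kb of exon (y axis) of the lysyl oxidases, the lysyl hydroxylases and the prolyl 4-hydroxylase alpha subunits in each library (x axis), stacked by gene; P4HA1, which is not 1 of the 10 genes, is included as the third alpha subunit. On this per kb scale, LOXL2 is the largest part of the lysyl oxidase bars in the 3 TC71 doxycycline libraries (61.1% to 62.9%), and P4HA1 the largest part of every alpha subunit bar.

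Whether the lines responded unequally was tested with the interaction of line and treatment. The response in TC71 exceeded that in EW8 by 3.79 ± 0.13 SE on the log2 scale for LOXL2 (adjusted p = 4.3e-13), by 1.43 ± 0.17 SE for LOXL1 (adjusted p = 8.77e-06) and by 1.39 ± 0.11 SE for P4HA2 (adjusted p = 6.71e-08). These 3 of 10 members compare with 4.18% of all tested genes called with a larger response in TC71, and 0 of 10 compare with 2.87% called with a smaller one. The difference passed the adjusted p but not the fold limit for PLOD2 (0.58 ± 0.10 SE, adjusted p = 0.000449), PLOD3 (0.53 ± 0.11 SE, adjusted p = 0.00162) and LOXL3 (−0.96 ± 0.33 SE, adjusted p = 0.0488). For LOXL3 this call at adjusted p alone did not hold in 8 of 19 alternatives, with adjusted p from 0.00451 to 0.103. It did not pass for P4HA3 (0.58 ± 0.33 SE, 95% interval −0.12 to 1.29, adjusted p = 0.263), PLOD1 (0.27, 0.05 to 0.49, adjusted p = 0.0839), LOX (−0.42, −1.89 to 1.05, adjusted p = 0.763) or LOXL4 (−0.52, −2.20 to 1.16, adjusted p = 0.739). Without TC71 vehicle replicate 1 the differences were 3.53 for LOXL2, 1.13 for LOXL1 and 1.26 for P4HA2. Responses of FOS and JUN differed between lines as well. They were larger in TC71 by 2.21 ± 0.09 SE and 0.73 ± 0.15 SE on the log2 scale. FOS was lower in TC71 than in EW8 under vehicle (log2 −1.65 ± 0.07 SE) and higher with doxycycline (0.55 ± 0.06 SE). For JUN these values were −0.06 ± 0.11 SE and 0.67 ± 0.10 SE. The counts pool endogenous and transgene reads, so the transgenes alone were not compared. The part of these differences in the enzyme responses was not tested.

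Before induction, LOX (log2 1.98 ± 0.52 SE, edgeR adjusted p = 0.00272) and LOXL3 (1.75 ± 0.23 SE, adjusted p = 2.93e-06) were higher in TC71 than in EW8, which was 2 of 10 against 11.6% of all tested genes, and LOXL2 (−1.64 ± 0.09 SE, adjusted p = 3.7e-11) and LOXL4 were lower, 2 of 10 against 18.9%. LOXL4 summed to 21 read pairs in EW8 vehicle and 5 in TC71 vehicle, a ratio of 4.78 (95% exact interval 1.75 to 16.2, counting error only). The other 6 members were not called under vehicle, with log2 differences between −0.64 (PLOD3) and 0.45 (PLOD2). After induction, LOX, LOXL1, LOXL2, PLOD2 and P4HA2 were higher in TC71 (5 of 10 against 12.6% of all tested genes), and LOXL4 was lower (1 of 10 against 18.4%). LOXL2 was thus 3.12-fold lower in TC71 than in EW8 with vehicle and 4.43-fold higher with doxycycline. The comparisons within and between lines share libraries.

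Promoter sequence was read for the members that RefSeq start site windows covered (GRCh38.p14, 250 bases before to 50 after a start), which gave 11 windows for 8 of 10 members; LOXL2 and P4HA3 had none. Both strands were searched for the AP-1 motif TGANTCA, the cAMP response element TGACGTCA, the hypoxia response cores ACGTG and GCGTG, a pair of GGAA repeats (GGAAGGAA), the unit of the microsatellites that EWS-FLI1 is known to bind, and the TATA box TATAAA. In the palindrome CACGTG, the core is read on both strands and the matches overlap. The 250 bases before the start are shown for LOX and PLOD2, the 2 members with ACGTG, which were not called in either line. They are also shown for P4HA2, called in both lines, and LOXL1, called in TC71. A relation of the motifs to the responses was not tested. Capitals mark ACGTG and GCGTG on either strand.
LOX, chr5:122078260-122078509, minus strand: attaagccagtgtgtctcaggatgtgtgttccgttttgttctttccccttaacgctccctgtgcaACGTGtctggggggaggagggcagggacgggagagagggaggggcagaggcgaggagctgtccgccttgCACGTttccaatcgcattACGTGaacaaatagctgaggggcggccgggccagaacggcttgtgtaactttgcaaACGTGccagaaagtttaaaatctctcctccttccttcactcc
PLOD2, chr3:146161185-146161434, minus strand: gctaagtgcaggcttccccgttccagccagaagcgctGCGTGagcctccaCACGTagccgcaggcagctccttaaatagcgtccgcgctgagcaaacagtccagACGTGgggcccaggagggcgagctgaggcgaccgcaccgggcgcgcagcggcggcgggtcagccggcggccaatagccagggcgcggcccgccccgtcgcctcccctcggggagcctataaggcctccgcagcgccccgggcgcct
P4HA2, chr5:132227092-132227341, minus strand: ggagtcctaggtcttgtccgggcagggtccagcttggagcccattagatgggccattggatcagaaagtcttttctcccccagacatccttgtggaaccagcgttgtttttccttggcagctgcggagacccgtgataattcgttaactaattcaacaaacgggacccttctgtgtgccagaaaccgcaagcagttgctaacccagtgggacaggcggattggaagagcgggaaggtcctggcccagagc
LOXL1, chr15:73926212-73926461, plus strand: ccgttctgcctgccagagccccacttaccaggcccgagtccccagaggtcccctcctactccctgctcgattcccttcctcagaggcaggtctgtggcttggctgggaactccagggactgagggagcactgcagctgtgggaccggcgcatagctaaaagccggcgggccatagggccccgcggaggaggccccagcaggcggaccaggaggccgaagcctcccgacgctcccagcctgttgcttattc
The LOX stretch held ACGTG at 4 places, which began at −185, −116, −98 and −42 from the start site, and the PLOD2 stretch at 2 places (−200 and −146), with GCGTG at −213. ACGTG was found in 4 of the 11 member windows, against 21.4% of all 35116 promoter windows. By gene, it was found for 2 of the 8 members with a window, against 24.9% of all genes with a window. GCGTG was found in 5 of the 11 member windows, against 36.5% of all windows. By gene, GCGTG was found for 4 of the 8 members with a window, against 40.6% of all genes with a window. Some LOX windows overlap, so the window counts of both cores hold the same sites more than once. The P4HA2 and LOXL1 stretches held none of the 6 motifs. No member window held TGANTCA (7.71% of all windows), TGACGTCA (1.85%), GGAAGGAA (3.67%) or TATAAA (11.5%). The P4HA2 window starts 68224 bases inside the span that the count table gives for the gene, so its other annotated starts were not searched.

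Other genes of collagen modification were read from lists of context genes. None of the 9 other genes of prolyl hydroxylation was called higher in either line. Some of them passed the adjusted p under the fold limit, among them P4HB, which was higher in both lines. P3H2, a prolyl 3-hydroxylase, was called lower in EW8 (log2 −1.10 ± 0.16 SE, edgeR adjusted p = 2.16e-05). None of the 10 genes of collagen glycosylation and chaperoning was called in either line, and none of the 5 tested genes of copper and ascorbate supply. Of all tested genes, 11.4% were called higher and 3.38% lower in EW8, and 12.3% and 3.67% in TC71. Some genes of these lists passed the adjusted p under the fold limit, in either direction. The collagen chaperone SERPINH1 was lower in EW8 (log2 −0.85 ± 0.08 SE, edgeR adjusted p = 1.59e-07), and SPARC was higher in TC71 (0.72 ± 0.07 SE). ATOX1 of the copper list was higher in both lines (0.94 ± 0.08 SE and 0.81 ± 0.08 SE). Median log2 fold changes of these lists were −0.02, −0.19 and −0.17 in EW8 and 0.45, −0.02 and −0.12 in TC71. Of 8 genes of procollagen processing, 2 rose in EW8 and 4 rose and 1 fell in TC71. PCOLCE2, an enhancer of procollagen C-proteinase, rose in both lines (1.85 ± 0.13 SE and 2.76 ± 0.12 SE), and BMP1, the C-proteinase that also processes the LOX proenzyme, rose in TC71 from 14.4 ± 1.43 to 99.9 ± 6.90 CPM (2.79 ± 0.10 SE). ADAMTS14, a procollagen N-proteinase, was called in EW8 on 13 against 2 read pairs (ratio 6.31, 95% exact interval 1.43 to 57.6).

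Collagen genes that were called mostly rose, and called genes among the other crosslinkers and partners went in both directions. Of 11 fibrillar collagen genes, 3 rose and 0 fell in EW8, and 5 rose and 1 fell in TC71, with list medians of −0.19 and 0.27 on the log2 scale. COL5A3, a type V collagen chain, went from 11.4 ± 1.29 to 30.4 ± 1.10 CPM in EW8 (1.41 ± 0.10 SE) and from 5.17 ± 0.945 to 256 ± 12.8 CPM in TC71 (5.62 ± 0.11 SE), and COL11A1, a minor fibrillar chain, rose in EW8 from 0.124 ± 0.0875 to 1.13 ± 0.183 CPM (3.17 ± 0.75 SE). COL1A2 was called in TC71 on 16 against 1 read pairs, a ratio of 20.9 (95% exact interval 3.25 to 877). Of 6 basement membrane collagen genes, 1 rose in EW8 and 5 in TC71. COL4A6 reached 3.85 ± 0.230 CPM in induced EW8 libraries on 291 read pairs against 1. COL4A2 was at 0 counts in every TC71 vehicle library and at 0.674 ± 0.127 CPM after induction, at least 5.79-fold higher (against the floor of 6 counts per library), while COL4A1 was called but was at or under the floor in both TC71 groups and is given no fold. Of 13 other crosslinking genes and lysyl oxidase partners, 1 rose and 2 fell in EW8, and 3 rose and 3 fell in TC71. TGM2, a transglutaminase that crosslinks matrix proteins, fell in EW8 (−1.56 ± 0.16 SE). LUM fell in EW8 (−2.36 ± 0.65 SE) and in TC71 (−1.66 ± 0.46 SE). FBN1, the microfibril protein fibrillin, rose in TC71 (2.23 ± 0.14 SE). In the same line POSTN was at 0 counts with vehicle and at 0.126 ± 0.122 CPM with doxycycline. That mean was 1.08 times the floor with an SD near the mean, so no fold is given.

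Of 12 hypoxia-inducible reference genes, 3 rose in EW8 and 4 in TC71 and none fell, with list medians of 0.32 and 0.82 on the log2 scale. NDRG1, a stress-responsive gene, rose from 6.63 ± 0.980 to 150 ± 3.66 CPM in EW8 (4.49 ± 0.11 SE) and from 1.46 ± 0.298 to 83.3 ± 4.38 CPM in TC71 (5.84 ± 0.12 SE). ADM, which encodes adrenomedullin, rose in EW8 (3.40 ± 0.65 SE, on at most 10 counts in a vehicle library), and ANGPTL4, a lipoprotein lipase inhibitor, rose in TC71 (4.10 ± 0.14 SE).

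**Figure D4:**
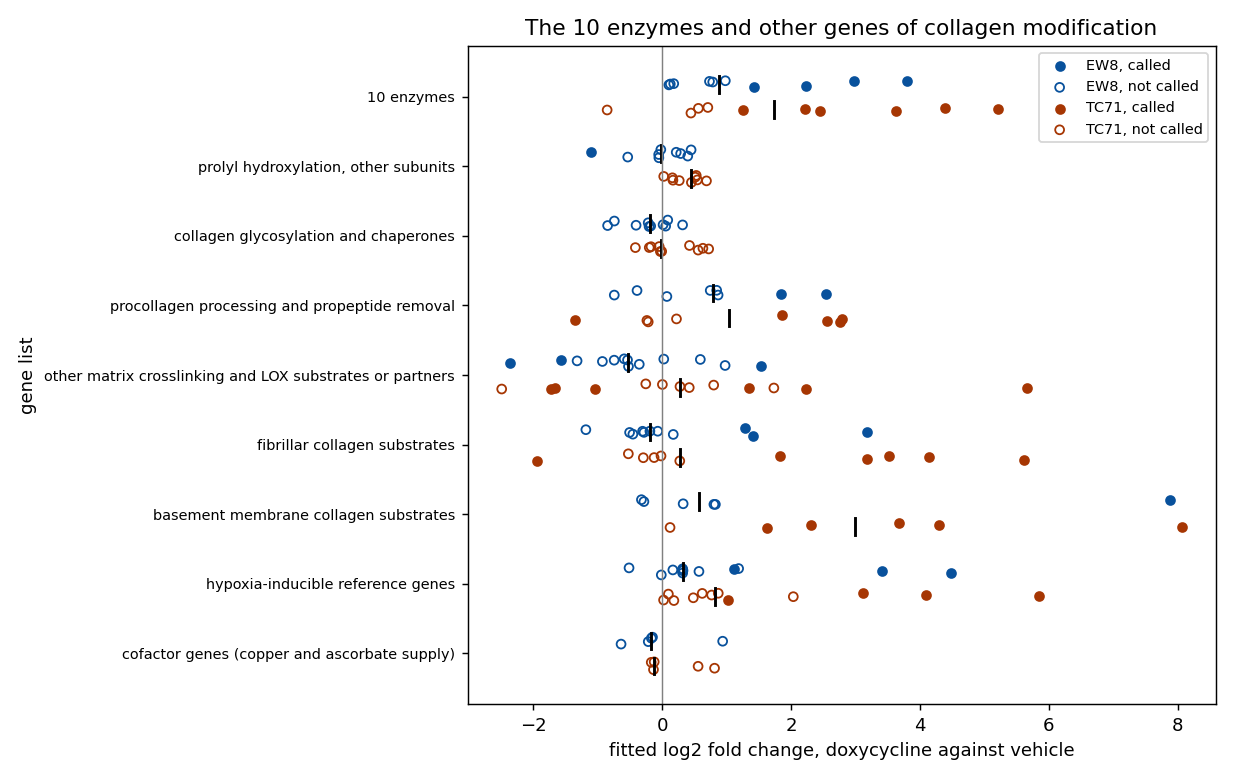
Fitted log2 fold change with doxycycline against vehicle (x axis) for the 10 enzymes and the tested genes of 8 context lists (y axis) in EW8 (blue) and TC71 (brown); filled points passed the test and fold limit, open points did not, and black bars mark list medians. The median of the 10 enzymes was 0.88 in EW8 and 1.74 in TC71, and several of the values past 3 in the collagen lists are fits against groups at or near 0 counts.

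Across the 12 libraries, the genes of mean CPM of at least 1 whose log2 CPM followed that of P4HA3 most closely were ELAPOR1 (Pearson's r = 0.996), JUN (r = 0.995) and TGFBI (r = 0.994). For LOXL2 they were CLSTN1 (r = 0.993), HOMER2 (r = 0.991) and DNM1 (r = 0.990). Among the 10 enzymes, LOXL1 and LOXL2 (r = 0.977) and P4HA2 and P4HA3 (r = 0.962) were closest to each other, while LOXL3 had r = −0.297 with LOXL2. The points share 2 treatments and 2 lines, so the coefficients are given as a description without a p.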

How the data were processed

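Poly(A) RNA of 12 libraries (TruSeq Stranded mRNA) was sequenced. The authors aligned reads to GRCh38 with STAR and deposited raw counts per gene, made with featureCounts 2.0.1 on GENCODE 29 exons per the file header; the deposited exon length, in another column, was used for CPM per kb. The header sets no strand and no pairing of mates, and 67.3% to 69.8% of counts are even, so a read pair often counts as 2. The authors checked read quality with FastQC, used edgeR for clustering and tested genes with DESeq2, here an alternative, since edgeR was the main test. Symbols were matched to 99.1% of genes. Depth was 42860665 to 60853649 counts per library.

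Counts were fitted with edgeR 4.0.16 (R 4.3.3; TMM, filterByExpr, glmQLFit, glmQLFTest) over all 4 groups with 1 mean each, and p-values were adjusted by the Benjamini-Hochberg method over 21013 genes, which hold 99.95% of the counts. SE was the absolute log2 fold change divided by the square root of F. Intervals for count ratios were exact binomial intervals on read pairs. The fit was tested on simulated data. Groups came from the labels. Alternatives were RLE scaling, library size alone, no filter, at least 10 counts in every library, counts divided by 2, a replicate block, no fold limit, the libraries of 1 line, DESeq2 1.42.0, and leaving out each library.

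The members and gene lists were chosen with earlier results of these data known. Named genes were all 10 members, JUN, FOS, P4HA1, P4HB, for each list the 2 called genes with the largest absolute log2 fold change per line, and, for the member with the largest response in each line, the 3 genes most correlated with it. Other genes of the lists were named after their values were seen. Promoters came from RefSeq, GRCh38.p14.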

Additional observations from a re-analysis of the deposited data

Results flagged for a closer look

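Responses to doxycycline that differed between the lines by a test of the difference itself, and by more than the fold limit of 1, were those of LOXL2, LOXL1 and P4HA2. PLOD2 (0.58), PLOD3 (0.53) and LOXL3 (−0.96) passed the adjusted p of that edgeR test under the fold limit (adjusted p = 0.000449, 0.00162 and 0.0488). The response of LOXL2 was larger in TC71 than in EW8 by 3.79 on the log2 scale, that of LOXL1 by 1.43 and that of P4HA2 by 1.39 (edgeR quasi-likelihood test of the interaction, adjusted p = 4.3e-13, 8.77e-06 and 6.71e-08). In each case all 3 induced TC71 libraries were above all 3 induced EW8 libraries. With 3 libraries a group, single libraries that stand apart were not tested for.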

How the results depend on the processing

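Of the recomputed counts of called members, 116 were within 1.5 times the value given and 12 were not, and of the recomputed log2 values of single members 579 kept their direction and their side of the threshold, 7 newly passed it and 5 changed sign. With at least 10 counts in every library, LOX and LOXL4 were no longer tested, so that 1 member instead of 2 was higher and 1 instead of 2 lower in TC71 under vehicle, and 3 were called in EW8 and 5 in TC71. Of the TC71 libraries alone, 5 members were called and LOXL4 was not tested. LOXL3 passed the fold limit as a member with a smaller response in TC71 (1 member instead of 0) under that filter (−1.06), with DESeq2 (adjusted p = 0.017) and without EW8 vehicle replicate 3, EW8 doxycycline replicate 1 or TC71 vehicle replicate 2 or 3, with the count running from 0 to 1 and the value from −1.38 to −0.69 over the libraries left out. Without a fold limit, 1 member was lower in TC71 after doxycycline, 5 had a larger and 1 a smaller response in TC71, and 5 were lower in TC71 under vehicle, by the construction of that alternative. Leaving out single libraries turned 4 values that had not passed the test: LOXL3 in EW8 (−0.17 to 0.48; lowest without EW8 vehicle replicate 1), P4HA3 between lines under vehicle (−0.12 to 0.42; −0.10 without EW8 vehicle replicate 1 and −0.12 without TC71 vehicle replicate 3), and the difference of responses for LOX (−1.17 to 0.13; highest without EW8 doxycycline replicate 1) and LOXL4 (−0.86 to 0.077; highest without TC71 vehicle replicate 2). LOX in EW8 ran from 0.37 to 1.73 and passed the test without EW8 vehicle replicate 2 alone. Why these values moved was not tested. A fit with the replicate number as a block gave 4 members higher in EW8, 6 in TC71 and 3 with a larger response in TC71, as without it, and changed no call at the fold limit. The adjusted p of the difference of responses for LOXL3 was 0.0554 under the block, 0.0977 and 0.0819 without EW8 vehicle replicate 1 and 2, and at most 0.103 in any alternative. Within a line, deviations of same-numbered vehicle and doxycycline libraries correlated between −0.028 and 0.01, and those of differently numbered ones between −0.03 and 0.046. These values do not show whether libraries of the same number were prepared together. Depth limits LOX, LOXL4 and the vehicle levels of P4HA3 most, at 2 to 118 counts.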

Other observations

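The gene whose log2 CPM over the 12 libraries was closest to that of P4HA2 was MMP3, which encodes the matrix metalloproteinase stromelysin (Pearson's r = 0.999), followed by SEMA7A (r = 0.998), and the closest to PLOD3 was MTCH1 (r = 0.995). These genes were looked up after the values were seen, the points share 2 lines and 2 treatments, and no test was made.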
